A study of Mus musculus with 19 samples.

Results

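The genes described here encode S100 proteins, annexins and galectins, small secreted or membrane-binding proteins. The members, chosen by name, were S100a4, S100a6, S100a10, S100a11, Anxa1, Anxa2, Anxa3, Anxa5, Lgals1 and Lgals3. Each gene was read from the probe set that lists its symbol and no other, and the brightest such probe set over all arrays stood for the gene. By this rule 9 of the 10 members were measured, among 10732 genes tested in all. S100a11 had 1 probe set, which lists several gene symbols, so no value is given for it. All 9 passed the filter on dim probe sets, and each lay above it on all 19 arrays.

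The RNA came from left ventricles of C57BL/6 males, each hybridised to an array of its own. Surgery took place at 7 weeks of age, and hearts were collected 4 weeks after it. There were 3 groups: 5 sham-operated mice, 7 aortic-banded mice without heart failure and 7 aortic-banded mice that had it. Banding narrows the aorta, so that the ventricle ejects against a higher pressure. No genetic change or drug is named for any group, and the criterion that assigned heart failure is not in the labels. Lung weight over tibia length, as the labels give it, was 8.2 to 9.38 after sham surgery, 8.52 to 10.83 in banded mice without heart failure and 17.92 to 24.62 in those with it. Mice carry a number within their group that only names them and pairs nothing across groups.

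Most S100 proteins are small calcium sensors. On binding calcium these open a surface that grips other proteins, and several S100 proteins also act outside the cell as danger signals. Annexins bind acidic phospholipids when calcium rises and so coat the inner face of damaged or remodelling membranes; some S100 proteins bind the tails of particular annexins, the best known pair being S100a10 with Anxa2. Galectins bind galactose-containing sugars on glycoproteins and link them into lattices. In injured hearts these families are known from fibroblasts, macrophages and vessel cells as well as from cardiomyocytes, and galectin-3 is used as a blood marker of heart failure.

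Promoter sequences are shown here for 4 members, because their transcripts behaved differently: Anxa1, Anxa2 and Lgals3 were higher in the heart failure group than in both other groups, and S100a4 passed the threshold in none of the comparisons. The RefSeq promoter table (GRCm38.p6) held an entry for 6 of the 9 measured members; S100a10, Anxa3 and Lgals1 had none. Each sequence is the 250 bases before the annotated start, 5′ to 3′ on the gene's own strand. Capitals mark matches, on either strand, to the letters TGANTCA of an AP-1 site. They also mark the TATA box, which is spelled TATAAA. The GC box was searched as GGGCGG. The TEAD site was searched as GGAATG, and the SRF CArG box was included too. No matches overlap.
Anxa1, chr19:20390672-20390921, minus strand: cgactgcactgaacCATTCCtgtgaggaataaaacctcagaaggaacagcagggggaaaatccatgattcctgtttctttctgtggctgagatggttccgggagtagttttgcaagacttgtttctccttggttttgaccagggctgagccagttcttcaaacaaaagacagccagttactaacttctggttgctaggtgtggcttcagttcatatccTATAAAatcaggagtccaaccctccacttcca
Anxa2, chr9:69453433-69453682, plus strand: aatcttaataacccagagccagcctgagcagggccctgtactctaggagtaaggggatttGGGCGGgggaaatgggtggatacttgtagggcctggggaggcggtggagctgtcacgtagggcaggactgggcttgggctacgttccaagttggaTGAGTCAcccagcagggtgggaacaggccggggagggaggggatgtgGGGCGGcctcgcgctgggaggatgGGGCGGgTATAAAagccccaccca
Lgals3, chr14:47373610-47373859, plus strand: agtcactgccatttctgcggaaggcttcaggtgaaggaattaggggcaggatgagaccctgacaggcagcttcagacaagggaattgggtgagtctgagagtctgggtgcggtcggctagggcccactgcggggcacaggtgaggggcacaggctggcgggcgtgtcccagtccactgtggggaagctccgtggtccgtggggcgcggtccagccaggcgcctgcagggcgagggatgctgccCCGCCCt
S100a4, chr3:90603520-90603769, plus strand: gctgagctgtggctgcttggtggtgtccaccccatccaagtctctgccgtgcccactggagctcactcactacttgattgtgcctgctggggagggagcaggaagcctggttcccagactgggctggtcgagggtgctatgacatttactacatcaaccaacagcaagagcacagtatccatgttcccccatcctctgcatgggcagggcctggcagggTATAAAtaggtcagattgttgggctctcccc

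A TATAAA box lay 32 bases before the start of Anxa1, 17 before that of Anxa2 and 31 before that of S100a4; 12.4% of the 32851 promoters in the table held one. The AP-1 letters occurred in the window of Anxa2, 95 bases before the start, and in 6.75% of all promoters. Anxa2 held 3 GC boxes and Lgals3 held 1, on the opposite strand, against 32.7% of all promoters with at least 1. Anxa1 held 1 TEAD match, also on the opposite strand and 236 bases before the start (12.6% of all promoters). None of the 6 windows held the SRF CArG box (1.47% of all promoters), and those of Anxa5 and S100a6 held none of the motifs searched. These are matches of letters, not sites shown to be used.

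Values below are the authors' log2 signals, on which 1 unit is a doubling of the signal. Signals of different probe sets are not comparable as amounts of RNA, so each gene is compared with itself across groups. Groups were compared with limma over all 10732 genes, and "called" means an adjusted p under 0.05 (Benjamini-Hochberg). Each change is given with its standard error. In tissue RNA, fewer cells of a type and less RNA per cell cannot be told apart.

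Some arrays stood apart before any comparison was made. The array's 18S ribosomal control was above a log2 signal of 8 on 6 arrays, sham mice 1 to 3 and banded mice 5 to 7 without heart failure, and below it on the other 13, which include all 7 mice with heart failure. The actin control's 3′ signal exceeded its 5′ signal, a measure of RNA integrity, by 0.943 to 1.02 in the sham group and by 0.661 to 0.905 in the banded groups, with no overlap. Heart muscle markers were bright on every array: Myh6, a myosin of atria and ventricles, averaged 16.68, 16.58 and 16.53 in sham mice, banded mice without heart failure and banded mice with it. Myl2, a light chain of ventricular muscle, lay between 15.64 and 15.90. Markers of atrial muscle were present too and varied widely: Myl7, the atrial counterpart of Myl2, lay between 7.53 and 12.67 after sham surgery, 8.86 and 13.75 without heart failure, and 2.30 and 13.89 with it, although the labels say that atria were removed. Across the 9 genes, the mean of their standardised values was lowest in sham mouse 2 (−1.67) and highest in banded mouse 1 with heart failure (1.54). Sham mice 1 and 3 (−0.26 and 0.06) lay above the other 3 sham mice, and banded mice 2 and 5 without heart failure (−1.05 and −0.65) lay below the rest of their group. All 7 mice with heart failure lay at 0.22 or above, and banded mouse 7 without it reached 0.34, so the banded groups overlapped.

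**Figure D1:**
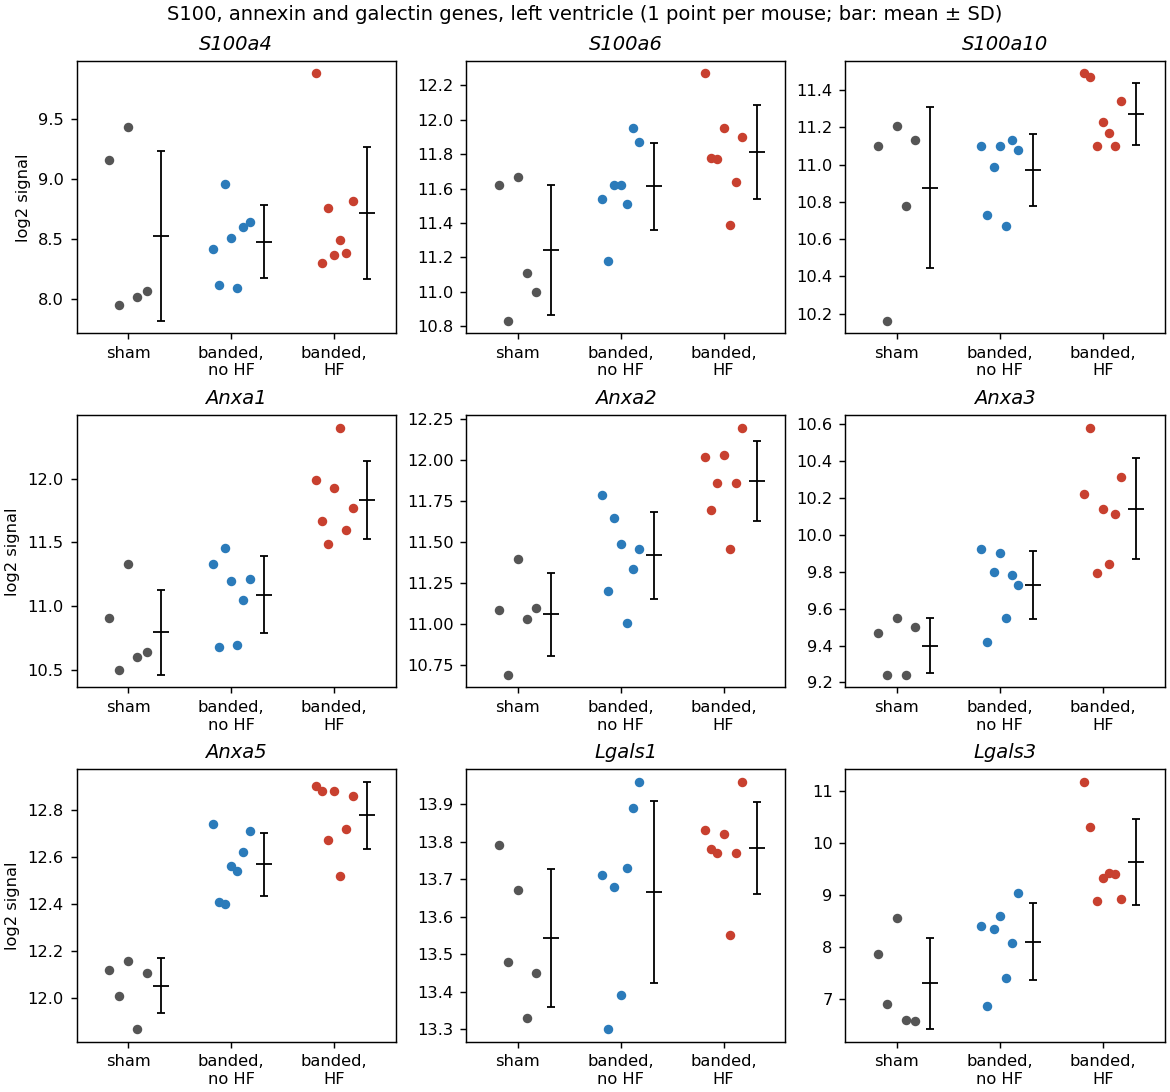
Log2 signal (y axis) of the 9 measured genes by group (x axis), with 1 point per mouse and the group mean ± SD beside the points. For Anxa1, Anxa2, Anxa3, Anxa5 and Lgals3 the lowest mouse with heart failure lies above the highest sham mouse, whereas the points of S100a4 overlap throughout.

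In banded mice with heart failure 7 of the 9 genes were higher than in sham mice (S100a6, S100a10, Anxa1, Anxa2, Anxa3, Anxa5 and Lgals3), and none was lower. Over all genes 20.4% were called higher, 18.9% lower and 39.3% in either direction in this comparison. The median change of the 9 genes was 0.72 on the log2 scale, against 0.01 for all genes. For 5 of the 9, all mice with heart failure lay above all sham mice, as was the case for 8.5% of all genes. In banded mice without heart failure 1 of the 9, Anxa5, was higher than in sham mice, where 10.8% of all genes were called higher, 6.53% lower and 17.4% in either direction. The median change of the 9 genes was 0.33, against 0.02 for all genes. Between the banded groups 4 of the 9, Anxa1, Anxa2, Anxa3 and Lgals3, were higher with heart failure, where 3.83% of all genes were called higher, 5.65% lower and 9.48% in either direction. The medians were 0.3 and −0.01. Quantile normalisation changed the share of calls that were higher from 62.4% to 49.3% without heart failure against sham and from 52% to 40.9% with it, and equal array medians changed the former to 76.2%. The 3 comparisons share groups, so their counts are not independent of each other.

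**Figure D2:**
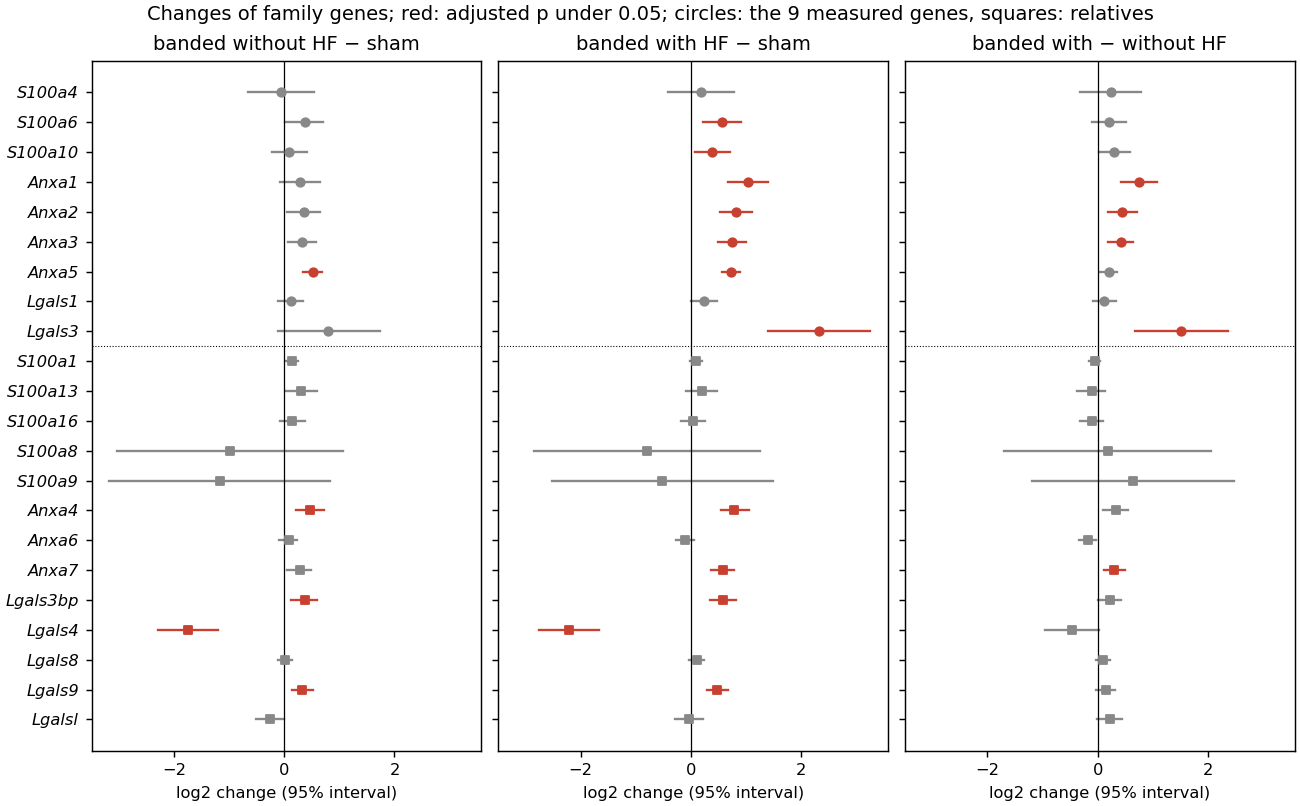
Log2 change with its 95% interval (x axis) for the 9 measured genes (circles) and 13 relatives (squares), 1 panel per comparison; red marks an adjusted p under 0.05 in limma. Lgals3 has the largest rise among the 22 genes with heart failure against sham (2.33) and Lgals4 the largest fall (−2.21).

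Among the S100 genes, S100a6 (calcyclin, a calcium sensor of dividing and stressed cells) was 11.62, 10.83, 11.67, 11.11 and 11 in sham mice 1 to 5. Banded mice without heart failure ranged from 11.18 to 11.95 with a median of 11.62, and those with it from 11.39 to 12.27 with a median of 11.78. Sham mice 1 and 3 reached the level of the banded groups, so all ranges overlap. S100a6 was 1.48-fold higher with heart failure than in sham mice (log2 change 0.57 ± 0.16, limma adjusted p = 0.0106). This call held in all 31 alternatives of the analysis. S100a6 has 1 probe set, so the alternatives that change the probe set could not alter its values. Banded mice without heart failure differed from sham by 0.37 ± 0.16 (adjusted p = 0.132) and from those with heart failure by 0.2 ± 0.15 (adjusted p = 0.421). With the actin difference as a covariate, the change of S100a6 without heart failure was 0.75 and was called (adjusted p = 0.0237).

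S100a10, the light chain that binds Anxa2 and carries it to the plasma membrane, was 11.10, 10.16, 11.21, 10.78 and 11.13 in sham mice 1 to 5. Its range was 10.67 to 11.13 (median 11.08) without heart failure and 11.10 to 11.49 (median 11.23) with it. Sham mouse 2 was far below the others, and the ranges of sham mice and of mice with heart failure overlap. The change with heart failure against sham was 1.31-fold (0.39 ± 0.15, limma adjusted p = 0.0426), but the call was lost in 13 of 31 alternatives: it was 0.21 (adjusted p = 0.151) without sham mouse 2 and 0.36 (adjusted p = 0.132) with the 18S array set as a block. Leaving out sham mouse 4 or any of banded mice 1, 2, 4 and 7 with heart failure also ended it. A further probe set of S100a10 gave changes of 0.1, 0.37 and 0.27 in banded mice without heart failure against sham, with heart failure against sham and between the banded groups.

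S100a4, also called fibroblast-specific protein 1 and known from motile fibroblasts and leukocytes, passed the threshold in none of the comparisons. In sham mice 1 to 5 it was 9.16, 7.95, 9.43, 8.02 and 8.07. It ranged from 8.09 to 8.96 (median 8.51) without heart failure and from 8.30 to 9.88 (median 8.49) with it. The sham group was split, with mice 1 and 3 more than 1 log2 unit above the other 3, and banded mouse 1 with heart failure was the highest of all. The difference from sham was −0.05 (95% interval −0.65 to 0.55, limma adjusted p = 0.928) without heart failure and 0.19 (−0.41 to 0.79, adjusted p = 0.633) with it, and that between the banded groups was 0.24 (−0.31 to 0.79, adjusted p = 0.607). Without banded mouse 1 with heart failure, the latter 2 differences were −0.01 and 0.04. The interval against sham with heart failure therefore includes anything from a fold of 0.752 to one of 1.73. Within the low 18S set, which leaves out sham mice 1 to 3, the change was 0.67 with an adjusted p of 0.174.

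Sham mice 1 and 3, the high ones for S100a4, also had the highest summed signal of 15 macrophage markers among sham mice, 13.78 and 14.44 against 13.17 to 13.59 in the other 3. The fibroblast sum was highest in sham mouse 3 (15.54), while sham mouse 1 (14.96) lay within the range of the others (14.72 to 15.0). Whether these markers account for the split of S100a4 was not tested.

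All 4 annexins had higher values in every mouse with heart failure than in any sham mouse. Anxa5, which binds phosphatidylserine and forms a crystalline lattice on torn membranes, was 12.12, 12.01, 12.16, 11.87 and 12.11 in sham mice 1 to 5. It ranged from 12.40 to 12.74 (median 12.56) in banded mice without heart failure and from 12.52 to 12.90 (median 12.86) with it. All 14 banded mice lay above all 5 sham mice, and for 4.63% of all genes the banded mice without heart failure lay wholly above sham.

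Without heart failure Anxa5 was 1.43-fold higher than in sham mice (0.52 ± 0.08, limma adjusted p = 0.000314), and with it 1.65-fold (0.72 ± 0.08, adjusted p = 1.81e-06). The banded groups overlapped in Anxa5 and differed by 0.21 ± 0.07 (adjusted p = 0.0789). This difference was called with the animal number series as a block (0.22, adjusted p = 0.0412), without banded mouse 1 without heart failure (0.24, adjusted p = 0.0496) and without banded mouse 5 with it (0.25, adjusted p = 0.0295). The series is a grouping by ranges of the animal numbers in the sample titles, chosen in the analysis. The labels name no such batch. Within the array sets, the change without heart failure was 0.53 in the high 18S set (adjusted p = 0.0104) and 0.54 in the low set (adjusted p = 0.0451). With the actin difference as a covariate it was 0.63 (adjusted p = 0.00255).

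Anxa1, a mediator of glucocorticoid action that ends neutrophil recruitment, was 10.91, 10.50, 11.33, 10.60 and 10.64 in sham mice 1 to 5. The values were 10.68 to 11.46 (median 11.20) without heart failure and 11.49 to 12.40 (median 11.77) with it. Every mouse with heart failure lay above every mouse of both other groups. Of all genes, 0.839% had this separation between the banded groups in the upward direction.

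In fold terms Anxa1 was 2.05-fold higher with heart failure than in sham mice (1.04 ± 0.17, limma adjusted p = 0.000129) and 1.68-fold higher than in banded mice without it (0.75 ± 0.16, adjusted p = 0.00742). Banded mice without heart failure differed from sham by 0.29 ± 0.17 (adjusted p = 0.261). Of the 4 genes called between the banded groups, Anxa1 lost the call in the fewest alternatives, 1 of 31. On the low 18S set alone its change was 0.67 with a limma adjusted p of 0.0735. Anxa1, Anxa3 and Lgals3 have 1 probe set past the filter and Anxa2 has 2, so only Anxa2 could change with the probe set.

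Anxa2, the heavier partner of S100a10 and a receptor for plasminogen and its activator Plat, was 11.09, 10.69, 11.40, 11.03 and 11.10 in sham mice 1 to 5. It ranged from 11.01 to 11.79 (median 11.46) without heart failure and from 11.46 to 12.20 (median 11.86) with it. Mice with heart failure lay above all sham mice and overlapped the other banded mice, through mice 2 (11.70) and 5 (11.46) of the heart failure group. The rise against sham was 1.76-fold (0.81 ± 0.14, limma adjusted p = 0.000195), that against the other banded mice 1.37-fold (0.45 ± 0.13, adjusted p = 0.0334), and banded mice without heart failure differed from sham by 0.36 ± 0.14 (adjusted p = 0.0875). That last difference was called without banded mouse 5 without heart failure (0.43, adjusted p = 0.0393) or without sham mouse 3 (0.44, adjusted p = 0.0494). The call between the banded groups was lost in 11 of 31 alternatives, among them the 18S set as a block (0.39, adjusted p = 0.0899) and the omission of any of banded mice 2, 5, 6 and 7 without heart failure and 1, 4 and 7 with it. A dim further probe set of Anxa2, with group means of 4.67 to 4.75, showed changes of −0.03, 0.06 and 0.09 and none was called.

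Anxa3, an annexin of neutrophils and small vessels, was 9.47, 9.24, 9.55, 9.24 and 9.50 in sham mice 1 to 5. Its values were 9.42 to 9.92 (median 9.78) without heart failure and 9.79 to 10.58 (median 10.14) with it. The mice with heart failure lay above all sham mice, and 2 of them (9.79 and 9.84) lay among the other banded mice. Against sham the rise was 1.67-fold (0.74 ± 0.12, limma adjusted p = 0.000105), and against banded mice without heart failure 1.33-fold (0.42 ± 0.11, adjusted p = 0.0245). The difference between sham mice and banded mice without heart failure was 0.33 ± 0.12 (limma adjusted p = 0.0687). It was called in 5 of 32 alternatives, among them the animal number series as a block (0.35, adjusted p = 0.0413), the omission of banded mouse 2 without heart failure (0.38, adjusted p = 0.036) and that of banded mouse 2 with it (0.33, adjusted p = 0.0412). Without banded mice 2 or 5 of the group without heart failure, without banded mouse 2 with it, or on the low 18S set alone, the call between the banded groups was lost.

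Lgals3, which encodes galectin-3, the lectin of activated macrophages and scar tissue, had the widest spread. Sham mice 1 to 5 had 7.87, 6.91, 8.57, 6.60 and 6.59. Banded mice 1 to 7 without heart failure had 8.41, 6.87, 8.35, 8.61, 7.41, 8.08 and 9.05, and those with it had 11.18, 10.31, 8.88, 9.33, 9.42, 9.40 and 8.92. All mice with heart failure lay above all sham mice, and 1 banded mouse without heart failure (9.05) reached into their range. Banded mice 1 and 2 with heart failure stood above the other 5 of their group.

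Lgals3 was 5.02-fold higher with heart failure than in sham mice (2.33 ± 0.44, 95% interval of the fold 2.65 to 9.51, limma adjusted p = 0.000419), the rise of rank 46 among all genes tested. Against banded mice without heart failure it was 2.87-fold higher (1.52 ± 0.40, adjusted p = 0.0239), rank 19. Banded mice without heart failure had a mean 0.80 ± 0.44 above sham (95% interval −0.12 to 1.73, adjusted p = 0.223). The rise against sham was called in all 31 alternatives, from 2.07 to 3.04, though with 1 probe set those on probe sets could not alter it. The call between the banded groups was lost in 5 of 31, and its value was 1.57 (adjusted p = 0.089) on the low 18S set.

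Lgals1, galectin-1, a lectin of fibroblasts and vessel walls that dampens T cells, was 13.79, 13.48, 13.67, 13.33 and 13.45 in sham mice 1 to 5. It ranged from 13.30 to 13.96 (median 13.71) without heart failure and from 13.55 to 13.96 (median 13.78) with it, and the groups overlap. The changes were 0.12 ± 0.11 without heart failure against sham (limma adjusted p = 0.468), 0.24 ± 0.11 with it (adjusted p = 0.0872) and 0.12 ± 0.10 between the banded groups (adjusted p = 0.485). In 6 of 31 alternatives Lgals1 was called higher with heart failure than in sham, for instance at 0.43 (adjusted p = 0.00265) with the 18S set as a block, at 0.28 (adjusted p = 0.0493) without banded mouse 5 with heart failure, and also without sham mouse 1. The other probe set of the gene changed by −0.03, 0.09 and 0.12.

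Whether a gene changed more between the banded groups than between sham mice and banded mice without heart failure was tested as a contrast of both steps, added after the values had been seen. None of the 9 genes passed (limma, Benjamini-Hochberg), where 0.363% of all genes did, and 1 of the 9 had an unadjusted p under 0.05. That gene was Anxa5, whose change between the banded groups was smaller by 0.31 ± 0.13 than that between sham mice and banded mice without heart failure (limma, adjusted p over all genes tested = 0.316). For Anxa1 the later step was larger by 0.46 ± 0.28 (adjusted p = 0.529) and for Lgals3 by 0.72 ± 0.72 (adjusted p = 0.736), so these steps were not shown to be unequal.

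Within the array sets, the arrays of the low 18S set alone gave 7 of the 9 genes called with heart failure against sham, with Lgals1 in place of S100a10, where 24.9% of all genes were called. Lgals3 changed there by 3.04 (limma adjusted p = 0.00228) and Anxa1 by 1.21 (adjusted p = 0.00221). Between the banded groups none of the 9 was called on these arrays (limma, Benjamini-Hochberg), where 1.39% of all genes were. The changes of Anxa1, Anxa2, Anxa3 and Lgals3 were 0.67, 0.34, 0.38 and 1.57. At an unadjusted p under 0.05 there were 8 of 9. The share of all genes at that unadjusted threshold was not worked out in any comparison, so no count at it given in this text can be weighed. The high set held no mouse with heart failure. With the 18S set as a block over all arrays, the counts of called members were 1 without heart failure against sham, 7 with it and 3 between the banded groups, where 21.9%, 33.6% and 8.93% of all genes were called. Without banded mouse 2 or banded mouse 5 of the group without heart failure, 1 of the 9 remained called between the banded groups, and without banded mouse 2 with heart failure 2 of 9; of all genes 6.83%, 4.73% and 5.58% were called in these fits.

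None of the other S100 genes passed the threshold. Of 12 listed, 5 were tested (S100a1, S100a8, S100a9, S100a13 and S100a16), and limma called none in any comparison. At an unadjusted p under 0.05 there were 2 of 5 without heart failure against sham, S100a1 and S100a13, and 0 of 5 in each comparison with the heart failure group. These counts cannot be weighed, since the share of all genes at that threshold was not worked out. S100a1, the S100 protein of the cardiomyocyte, changed by 0.15, 0.09 and −0.05, while its dimmer probe set fell by 0.27 with heart failure against sham (limma adjusted p = 0.0233 over all probe sets past the filter). The RefSeq annotation places S100a1, S100a13, S100a16, S100a4, S100a6, S100a8 and S100a9 in 1 run on chromosome 3 with no other protein-coding gene than S100 genes between them; S100a10 and S100a11 lie next to each other, separated from this run. By the brightest probe sets, S100a6 (0.57 ± 0.16) was the only tested gene of the run called with heart failure against sham. The others changed by 0.2 ± 0.13 for S100a13, 0.19 ± 0.29 for S100a4, 0.09 ± 0.05 for S100a1 and 0.04 ± 0.11 for S100a16. S100a8 and S100a9 were at −0.8 ± 0.98 and −0.52 ± 0.96. Their errors were larger than their changes, so they show no difference in sign from the rest of the run.

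Other annexins moved with the members in part. Anxa4, an annexin of secretory membranes, rose 1.38-fold without heart failure (0.47 ± 0.12, limma adjusted p = 0.0128) and 1.73-fold with it (0.79 ± 0.12, adjusted p = 5.32e-05), and its 3 probe sets rose together. Anxa7 rose by 0.58 ± 0.10 with heart failure against sham (adjusted p = 0.000233) and by 0.3 ± 0.09 between the banded groups (adjusted p = 0.0482), a call that was lost in 23 of 31 alternatives. Anxa6, an abundant annexin of heart muscle, was not called in any comparison, at 0.08, −0.11 and −0.18. Of the 8 other annexins listed, these 3 were tested.

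Among 9 other galectin genes listed, 5 were tested, and 1 moved against Lgals3. Lgals4, a galectin known from the gut lining, was 8.15, 8.20, 8.15, 8.26 and 7.44 in sham mice 1 to 5, 5.08 to 6.95 (median 6.35) without heart failure and 5.35 to 6.21 (median 5.88) with it. All banded mice lay below all sham mice, which held for 3.04% of all genes without heart failure and for 9.06% with it. It fell 3.36-fold without heart failure (−1.75 ± 0.26, limma adjusted p = 0.000202) and 4.63-fold with it (−2.21 ± 0.26, adjusted p = 3.23e-06). Lgals9, a galectin with paired sugar-binding domains, rose by 0.33 ± 0.09 (adjusted p = 0.0152) and 0.48 ± 0.09 (adjusted p = 0.000347), and Lgals3bp, a secreted glycoprotein that binds galectin-3, by 0.37 ± 0.11 (adjusted p = 0.0306) and 0.58 ± 0.11 (adjusted p = 0.000474). The calls without heart failure were lost in 4 of 32 alternatives for Lgals9, among them the omission of sham mouse 2, and in 9 of 32 for Lgals3bp, among them that of banded mouse 1 or 3 without heart failure or of sham mouse 1 or 2, with changes of 0.25 to 0.41 and 0.28 to 0.43. Lgals8 and Lgalsl were not called. Between the banded groups none of the 5 was called by limma, with 1 at an unadjusted p under 0.05.

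Known partners, receptors and targets of the members were counted next. Of 17 listed, 10 were tested: 2 rose without heart failure against sham (Plat and Tlr4), 7 rose and 1 fell with it, and 2 rose between the banded groups. Of all genes 10.8%, 20.4% and 3.83% were called higher in these comparisons, so the first count is close to the share of all genes; the medians of the 10 genes were 0.12, 0.28 and 0.18. Tlr4, a receptor for S100 danger signals, rose by 0.68 ± 0.11 without heart failure (limma adjusted p = 0.000507) and by 0.90 ± 0.11 with it (adjusted p = 6.32e-06). The former call was lost in 2 of 32 alternatives, on the second brightest probe set and on the low 18S set, with changes of 0.38 to 1.06 over the alternatives. Plat, the plasminogen activator that binds Anxa2 and S100a10, rose by 0.35, 0.80 and 0.45 in the 3 comparisons. Its first call (limma adjusted p = 0.0429) was lost in 13 of 32 alternatives, with changes of 0.3 to 0.5: on the low 18S set, with quantile normalisation, with no filter, and without any of sham mice 1 to 4, of banded mice 1, 4, 5, 6 and 7 without heart failure, or of banded mouse 6 with it. Cd44, a hyaluronan receptor whose sugars galectins bind, rose by 0.86 with heart failure against sham and by 0.53 between the banded groups. The latter call was lost in 3 of 31 alternatives: the second brightest probe set, the mean of all probe sets and the omission of banded mouse 2 without heart failure. Between the banded groups, dimmer probe sets of Cd44 changed by 0.47 and 0.31 (limma adjusted p = 0.135 and 0.336 over all probe sets past the filter). Smaller rises with heart failure were those of Itgb1 (0.30, lost in 2 of 31 alternatives), an integrin with galectin-binding sugars, and Ahnak (0.26, lost in 5 of 31), a scaffold of the S100a10 and Anxa2 complex. Myh9, a non-muscle myosin that S100a4 binds, was called higher by its brightest probe set (0.38). The next brightest gave −0.50 and was not called (limma adjusted p = 0.245 over all probe sets past the filter). Dimmer probe sets of Myh9 rose by 0.60 and 0.75 (limma adjusted p = 0.0036 and 0.00527). The call of the brightest was lost in 12 of 31 alternatives. Among them were the omission of sham mouse 2, 3 or 4 and of banded mouse 1 or 2 with heart failure. Sugt1, a chaperone partner that S100a6 binds, was called at 0.20 by its brightest probe set and was −0.05 by the other; its call was lost in 7 of 31 alternatives, among them the omission of sham mouse 1 or 3. Bsg, a glycoprotein of the muscle surface, fell by 0.23, a call lost in 2 of 31 alternatives. Plau, Plaur, Plg, Ager, Fpr1, Fpr2 and Cd63 were not tested.

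Of 13 genes of membrane repair listed, 12 were tested; 2 rose without heart failure against sham, 4 with it and 3 between the banded groups, and none fell. The shares of all genes called higher were 10.8%, 20.4% and 3.83%, and the medians of the 12 genes were 0.13, 0.15 and 0.02. Ahnak2, a large scaffold related to Ahnak, rose by 1.06 ± 0.24, 1.91 ± 0.24 and 0.85 ± 0.22, and its values with heart failure lay above all others. Of all genes 8.5% lay wholly above sham with heart failure, and 0.839% wholly above the other banded mice. The first call was lost in 1 of 32 alternatives, the high 18S set (limma adjusted p = 0.0776). The last was lost in 1 of 31, the low 18S set (limma adjusted p = 0.0632). Myof, a relative of dysferlin that fuses vesicles to the membrane, rose by 1.35 ± 0.27 with heart failure against sham (limma adjusted p = 0.000587) and by 0.79 ± 0.24 between the banded groups (adjusted p = 0.0464, lost in 16 of 31 alternatives). Capn2, a calcium-activated protease, rose by 0.44 and 0.31 in the same comparisons, the latter call lost in 15 of 31 alternatives. Capn1, its close relative, was called higher without heart failure than in sham (0.47), with 7.12 to 7.29 in banded mice 5 to 7, the high 18S arrays, and 6.57 to 6.79 in the other 4, against 5.85 to 6.73 in sham mice. This call was lost in 10 of 32 alternatives, with changes down to 0.02. Among them were the low 18S set and the omission of banded mouse 5, 6 or 7 or of sham mouse 1 or 2. The dimmer probe set of Capn1 rose by 0.84 without heart failure (limma adjusted p = 0.00224 over all probe sets past the filter). Its values were 5.53 to 6.35 there and 4.85 to 5.42 in sham mice. With heart failure that probe set was 0.47 above sham (limma adjusted p = 0.031). Pdcd6ip rose by 0.28 with heart failure against sham, a call lost in 3 of 31 alternatives, among them the omission of sham mouse 3 or 5. Dysf, the muscle repair protein dysferlin, and Cav3 were not called, with changes between −0.10 and 0.15.

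The markers of cell types moved unevenly beside the members. Of 10 fibroblast markers, 6 rose without heart failure against sham, 8 with it and 3 between the banded groups (Dcn by 0.36, Col1a1 by 0.87 and Mfap5 by 1.12). Of all genes 10.8%, 20.4% and 3.83% were called higher in these comparisons. The summed log2 signal of the 10 markers spanned 14.72 to 15.54 after sham surgery. It was 15.08 to 15.86 after banding without heart failure and 15.79 to 16.23 with it. Pdgfra averaged 9.87, 10.36 and 10.58 in these groups and Tcf21 averaged 8.56, 9.0 and 9.14. The part of fibroblast content in the rise of the members was not tested.

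Few macrophage markers passed the threshold beside Lgals3. Of 15, none was called without heart failure against sham or between the banded groups (limma, 1 each at an unadjusted p under 0.05). With heart failure against sham 1 was called, Cx3cr1 (0.79). Of all genes 17.4%, 9.48% and 39.3% were called in either direction in these comparisons. The summed signal of the 15 markers was 13.17 to 14.44 in sham mice, 13.43 to 13.68 without heart failure and 13.27 to 13.91 with it. The group means were 7.62, 7.39 and 7.24 for Cd68, 10.83, 10.64 and 10.42 for Csf1r, 8.65, 8.47 and 8.78 for Adgre1 and 8.27, 8.12 and 8.21 for Ptprc. Cardiomyocyte markers fell in 5 of 10 with heart failure against sham (Myh6, Tnni3, Ryr2, Ckm and Pln), where 18.9% of all genes were called lower. Of 10 endothelial markers 4 rose in that comparison (Pecam1, Tie1, Robo4 and Esam), where 20.4% of all genes were called higher. Pecam1 averaged 10.18, 10.45 and 10.54 in the 3 groups. Without heart failure Tie1 and Robo4 rose, and between the banded groups Cdh5 fell by 0.37 and the cardiomyocyte markers Ckm and Tnni3 by 0.23 and 0.18. Of all genes 10.8% were called higher without heart failure against sham, and 5.65% lower between the banded groups.

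Some markers of vessel mural cells and of atrial muscle were called, in both directions. Of all genes 17.4%, 39.3% and 9.48% were called in either direction without heart failure against sham, with it and between the banded groups. Of 10 mural markers, Pdgfrb, Cspg4 and Notch3 rose and Abcc9 fell without heart failure against sham; Tagln, Pdgfrb and Cspg4 rose and Abcc9 and Kcnj8 fell with it; and Abcc9 and Kcnj8 fell between the banded groups. The mural sum was 15.19 to 15.28, 15.21 to 15.48 and 15.18 to 15.37 in sham mice and in banded mice without and with heart failure. Of 5 atrial markers tested, none was called without heart failure against sham (limma; 1 at an unadjusted p under 0.05), Dkk3 rose (1.97) and Stard10 fell (−1.32) with it, and Myl7 fell between the banded groups (−4.93). The atrial sum was 9.90 to 13.77, 10.63 to 14.88 and 8.69 to 15.43 in these groups. Both sums overlapped across the groups. The part of mural or atrial content in the members' changes was not tested.

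Banded mouse 5 with heart failure carried a signal of its own within these families. Its S100a8 was 11.77 and its S100a9 was 11.05, while the next highest mice of its group had 6.13 and 5.81; these encode calprotectin, the main calcium-binding protein of neutrophils. Sham mouse 3 was the next highest of all, at 9.63 and 9.0. Fpr2, a receptor of Anxa1 on neutrophils that was chosen for naming after its values were seen, was 9.25 in banded mouse 5 and between 2.36 and 3.37 on the other 18 arrays.

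The neutrophil markers followed in part. Csf3r, Ngp and Cxcr2 were 5.04, 5.14 and 3.22 in this mouse, against at most 4.15, 2.2 and 2.19 on the other arrays, while Mpo and Elane stayed at 2.19 and 2.21. All were too dim on most arrays to be tested. The same mouse had the highest Anxa1 of all (12.40) and the lowest S100a6, Anxa2, Anxa5 and Lgals1 of its group. Without it, Anxa1 was 0.94 above sham and 0.65 above the other banded mice (limma adjusted p = 0.000173 and 0.0113), 8 of the 9 genes were called with heart failure against sham, Lgals1 being added, and 5 of 9 between the banded groups, Anxa5 being added. Of all genes 39.8% and 9.34% were called in these fits.

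**Figure D3:**
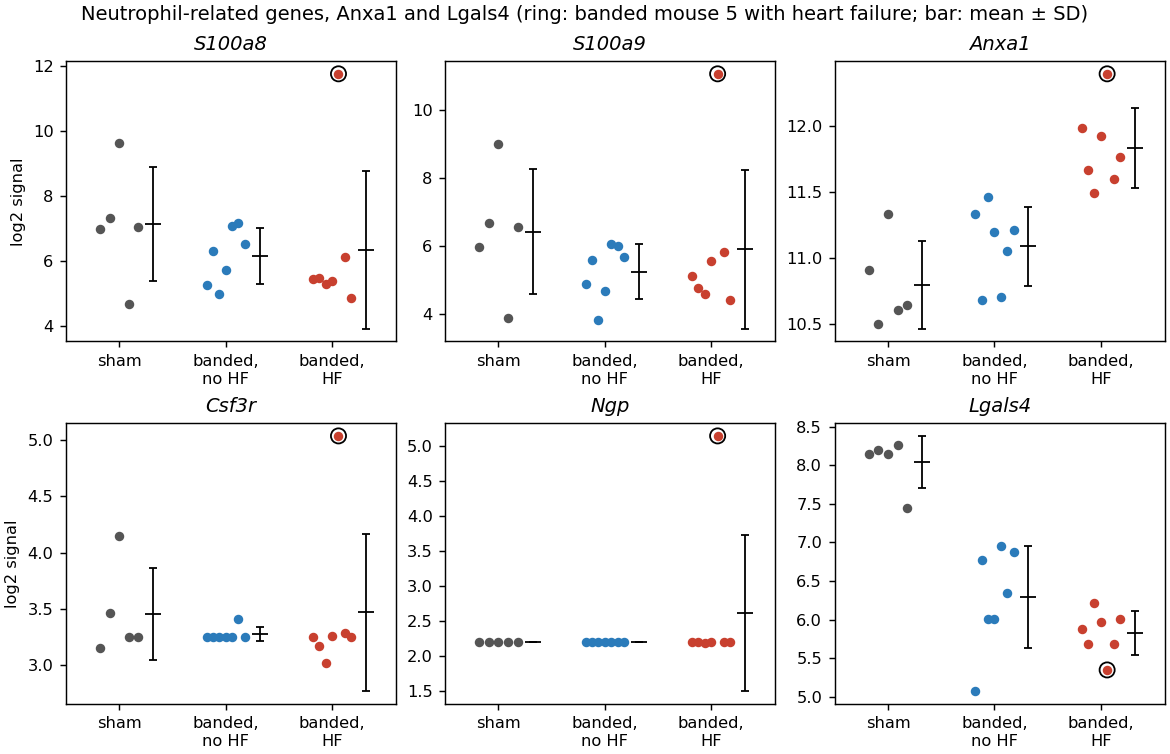
Log2 signal (y axis) of S100a8, S100a9, Anxa1, the neutrophil markers Csf3r and Ngp, and Lgals4 by group (x axis), 1 point per mouse with the mean ± SD; the ring marks banded mouse 5 with heart failure. The ringed mouse is the highest of all 19 for the first 5 genes (S100a8 at 11.77) and the lowest of its group for Lgals4 (5.35).

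Left ventricular weight over tibia length, taken as the labels give it, was set against each of the 9 genes within each banded group of 7 mice, which gave 18 relations. No relation passed the Benjamini-Hochberg adjustment over the 18. In banded mice without heart failure Anxa3 rose with the index most closely (Pearson r = 0.91, exact two-sided permutation p = 0.00357, adjusted p = 0.0643; Spearman rho = 0.86, exact p = 0.0238, adjusted p = 0.298). Its r was 0.72 without the 2 mice farthest from the median index. Anxa2 (r = 0.85, rho = 0.75, exact permutation p = 0.0167 and 0.0663, adjusted p = 0.0821 and 0.298) had an r of 0.6 without those mice, and S100a10 (r = 0.83, rho = 0.77, exact permutation p = 0.0183 and 0.0532, adjusted p = 0.0821 and 0.298) one of 0.14, so the latter rested on them.

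In banded mice with heart failure r was −0.00 for Anxa3 and 0.4 for Anxa2 (exact permutation p = 0.999 and 0.381). The largest there was that of S100a4 (r = 0.79, rho = 0.79, exact permutation p = 0.0121 and 0.048, adjusted p = 0.0821 and 0.298), with 0.8 without the 2 farthest mice. The banded mice without heart failure split into 18S sets of 4 and 3 arrays, too few for a value within each, and all mice with heart failure were in the low set. The partners S100a10 and Anxa2 gave r = 0.76 without heart failure and 0.25 with it (rho = 0.5 and 0.27). The exact permutation p of r was 0.0615 and 0.595, adjusted over 4 relations 0.246 and 0.794. Without the 2 mice farthest from the group's median S100a10 signal, r was −0.42 and 0.6. For Lgals1 and Lgals3 r was 0.52 and −0.01 (rho = 0.36 and 0.02; exact permutation p 0.224 and 0.987, adjusted 0.448 and 0.987).

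**Figure D4:**
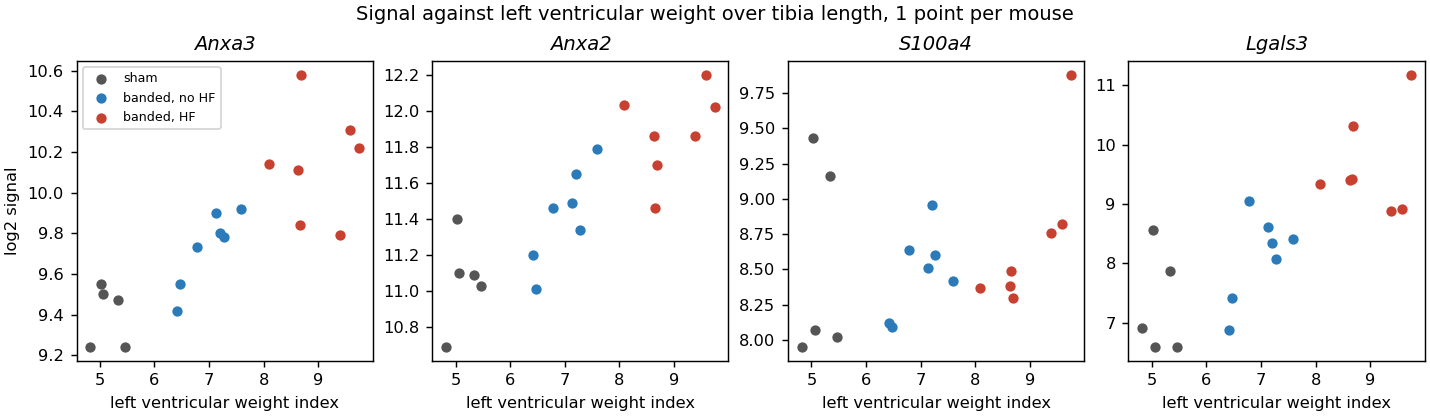
Log2 signal (y axis) of Anxa3, Anxa2, S100a4 and Lgals3 against left ventricular weight over tibia length as labelled (x axis), 1 point per mouse, coloured by group. The groups do not overlap along the x axis, so a correlation is given within each banded group alone, where Anxa3 has r = 0.91 without heart failure and −0.00 with it.

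The genes with the pattern most like that of the members were found from the Pearson correlation, over the 19 arrays, of each tested gene with the mean of the 9 standardised genes. Arrays of the same groups share this pattern, so the values are descriptions with no test. The 10 closest were Dap (r = 0.955), Cavin3 (0.946), Ptprf (0.945), Timp1 (0.943), Fstl1 (0.942), Rcn3 (0.938), Sfxn3 (0.937), Sulf1 (0.936), Nucb2 (0.936) and Vkorc1 (0.933). With heart failure against sham they were higher by 0.54 for Sfxn3 up to 2.83 for Timp1, an inhibitor of matrix metalloproteinases. Of the 9 genes themselves, Lgals3 followed the mean most closely (0.929), which includes the gene itself, and S100a4 least (0.637).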

How the data were processed

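The authors deposited log2 expression values. The submitters' processing notes name GCRMA, with no version; the genome build was not given in the sources used here. This method draws dim probe sets to a common floor, so fold changes of dim genes are compressed. Values ran from 2.19 to 16.77 and array medians from 2.85 to 2.99. For arrays, their number limits the precision: standard errors of the changes had a median of 0.105 against sham and 0.0955 between the banded groups.

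Of 45101 probe sets, 34958 had 1 symbol in the platform annotation, 932 several, and 9211 were not listed. Probe sets with log2 above 4 on at least 5 arrays were kept (20462, of which 18584 had 1 symbol), and the brightest per gene gave 10732 genes. All 19 arrays entered 1 fit with a mean per group (lmFit, then eBayes; limma 3.58.1 in R 4.3.3). P-values were adjusted over all genes by Benjamini and Hochberg's method, with a threshold of 0.05. The fit was tested on simulated data. Correlations used exact permutation of all 5040 pairings (scipy 1.17.1, Python 3.11.15). Alternatives changed the filter, probe set, normalisation, samples and covariates, or left out each array in turn. Most of them share arrays, so their outcomes are not independent of each other.

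The members and gene lists were chosen with earlier results of these data known. The text names all members, relatives past the threshold in any comparison, the 10 genes most like the members, and markers where 5 or fewer passed, besides Ptprc, Adgre1, Cd68, Csf1r, Pdgfra, Tcf21, Pecam1 and Myh6; further names, such as those of S100 neighbours and relatives that were not called, were added to account for the lists. Promoter sequences are from RefSeq (GRCm38.p6). Figures were drawn with matplotlib 3.10.9.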

Additional observations from a re-analysis of the deposited data

Results flagged for a closer look

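Among 132 gene and group pairs examined for a mouse far from the rest of its group by Dixon's criterion, 9 stood out, where chance gives about 1 in 20. Among the members, S100a4 in banded mouse 1 with heart failure was 9.88 and the next highest mouse of that group had 8.82. Banded mouse 5 with heart failure gave 6 of the 9: the highest S100a8 (11.77, next 6.13), S100a9 (11.05, next 5.81), Anxa7 (11.62, next 11.29) and Capn2 (11.16, next 10.92), and the lowest Dysf (8.63, next 9.18) and Mgat5 (6.45, next 7.05). Lgals4 in sham mouse 5 was 7.44, with the next lowest sham mouse at 8.15. Ahnak2 in banded mouse 2 without heart failure was 7.85, with the next lowest at 8.51.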

How the results depend on the processing

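No called change of a member turned its sign; of the relatives, Myh9 and Sugt1 did so on their next brightest probe sets with heart failure against sham (0.38 to −0.50 and 0.20 to −0.05). With heart failure against sham, the count of called members was 7, and 6 to 8 with each array left out. Without heart failure against sham it was 1, and 2 with equal array medians, with the actin difference as a covariate, with the animal number series as a block and with only the groups compared in the fit; with each array left out it was 1 to 2 (2 without sham mouse 3, banded mouse 2 or 5 without heart failure or banded mouse 2 with it). Between the banded groups it was 4, fell to 2 with no filter and to 0 on the low 18S set, and was 1 to 5 with each array left out. Over all genes the counts were 1863, 4219 and 1017 in this order of comparisons (without heart failure against sham, with it, and between the banded groups), 343, 2669 and 149 on the low 18S set, and 1199 and 2704 against sham with the actin covariate. With each array left out they were 1188 to 2199 (1188 without sham mouse 2), 3537 to 4386 and 508 to 1146 (508 without banded mouse 5 without heart failure, 599 without banded mouse 2 with it, 672 without banded mouse 6 without it). Under the scalings tried, the median change of all genes moved by less than 0.1. The cause of these shifts was not tested. The low 18S set and the fits that left out an array held fewer arrays, and the part of that was not tested either. S100a11 had no value, so its 2 relations with the weight index and its pair with Anxa1 were not run, nor could the high 18S set give comparisons with heart failure. No paired analysis was possible because the labels give no replicate numbers that groups share.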
